A study of Mus musculus with 24 samples.

Results

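Livers labelled as lacking Atg5, TSC1 and p62 (p62 TKO) were compared with livers labelled as lacking TSC1 alone (TSC1 KO). Both groups are labelled as having lost TSC1 in the liver, so their labels differ by the hepatic losses of Atg5 and p62. The comparison bears on which effects of Atg5 loss in a TSC1-deficient liver appear when p62 is absent as well. It cannot tell these apart from effects of p62 loss. No group in the series is labelled as lacking TSC1 and p62 with Atg5 kept. The 8 libraries were taken by genotype label, 4 of p62 TKO and 4 of TSC1 KO, from 24 in the series. The other 16 were 4 each of livers with hepatic Atg5/TSC1/Nrf2 loss (Nrf2 TKO), hepatic Atg5/TSC1 loss (DKO), hepatic Atg5 loss (Atg5 KO) and wild type (WT). All mice were C57BL/6J, aged 2 months. The labels name neither the Cre driver nor the deleted exons, and give no sex or batch. Nor do they state whether the libraries are separate animals, and p-values therefore reflect only the spread among these libraries, which may be technical.

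ATG5 is part of the conjugation machinery that attaches LC3-family proteins to membranes, and without it autophagosomes do not form properly. p62, encoded by Sqstm1, is a receptor that brings ubiquitinated cargo to autophagosomes and is itself degraded there. When autophagy is blocked, p62 accumulates and can hold KEAP1 away from the transcription factor NRF2, which then turns on antioxidant and detoxification genes. TSC1 forms the complex that restrains mTORC1, the kinase that drives growth and represses autophagy and lysosome biogenesis. In liver, loss of autophagy is known for hepatomegaly, NRF2 activation, ductular reaction and fibrosis.

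RNA was measured as polyadenylated, stranded, single-read libraries of 75 bp. Totals were 11104112 to 12795277 counts in p62 TKO livers and 11403975 to 12465339 counts in TSC1 KO livers. Levels are in CPM, the usual scaling of counts to a common library total, with totals adjusted by TMM, a factor that aligns the bulk of genes between libraries. Changes, also where a gene is said to have risen by a value, are log2 fold changes of p62 TKO over TSC1 KO ± SE from edgeR's quasi-likelihood test with n = 4 libraries each, and calls were made at an adjusted p under 0.05 (Benjamini-Hochberg, 15851 genes).

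The targeted genes came first. Atg5 (chromosome 10, 44268358 to 44364291, plus strand, GRCm38) had 35.4, 42.8, 37.5 and 36.5 CPM in p62 TKO livers, against 88.4, 81.8, 79.7 and 84.4 CPM in TSC1 KO livers (-1.14 ± 0.12, adjusted p = 4.25e-07). All 4 p62 TKO libraries were below all 4 TSC1 KO libraries. Atg5 was nevertheless higher in livers labelled Atg5 KO, at 42.98 ± 4.26 CPM, than in WT livers at 26.8 ± 3.74 CPM (SD, n = 4 each). Sqstm1 (chromosome 11, 50199366 to 50210827, minus strand), the p62 gene, had 248.8, 439, 363 and 772 CPM in p62 TKO livers, against 809.5, 787, 667 and 683 CPM in TSC1 KO livers (-0.69 ± 0.25, adjusted p = 0.0309). Replicate 4 of p62 TKO lay within the TSC1 KO range, and the other 3 lay below it. The call was lost when any of p62 TKO replicates 1, 2 and 3 or TSC1 KO replicates 1 and 2 was left out and with only the groups compared (-0.69), and with total counts alone the change was -0.29. The gene also overlaps Mrnip on the other strand. Tsc1, deleted by label in both groups, had 19.4, 24.02, 21.3 and 24.6 CPM in p62 TKO livers, against 29.04, 33.7, 30.3 and 30.7 CPM in TSC1 KO livers (-0.47 ± 0.19, adjusted p = 0.0544). Nfe2l2, which encodes NRF2, had 126, 122, 126 and 116 CPM in p62 TKO livers, against 82.1, 87.4, 95.5 and 107 CPM in TSC1 KO livers (0.40 ± 0.19, adjusted p = 0.0971). Neither passed the test of p62 TKO against TSC1 KO, although in both genes the groups did not overlap. Tsc1 passed with DESeq2, with its size factors, with only the groups compared (-0.47) and without p62 TKO replicate 2 (-0.54, adjusted p = 0.049), and Nfe2l2 passed with only the groups compared (0.40) and with total counts alone (0.79). Tsc1 averaged 30.9 ± 1.98 CPM in TSC1 KO livers and 35.1 ± 1.52 CPM in WT livers (SD, n = 4 each), a change that did not pass (-0.18 ± 0.19, adjusted p = 0.563). Counts over whole genes include exons outside a deleted part, so they neither show nor exclude a deletion, and the group names are those of the labels throughout.

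Of 15851 genes, 3719 (23.5%) were higher and 2779 (17.5%) lower in p62 TKO than in TSC1 KO livers, 6498 (41.0%) in all. Groups that did not overlap in either direction were seen in 42.6% of genes. Many list members named below were picked for a small adjusted p, so separate groups in them add no support beyond the test. The first principal component of the 8 libraries held 79.0% of the variance of the 2000 most variable genes, with p62 TKO at 46.7 to 59.0 and TSC1 KO at -64.9 to -47.4. The median log2 fold change over all genes was 0.04. It was 0.43 when libraries were scaled by total counts alone, with 7153 genes higher and 973 lower. TMM factors were 1.01 to 1.19 in p62 TKO and 0.80 to 0.85 in TSC1 KO, and the 20 genes with most counts held 16.3% to 18.2% of counts in p62 TKO and 19.7% to 21.02% in TSC1 KO. Directions below are therefore relative to the bulk of genes, and lists whose median turned sign with total counts alone are named. In bulk liver RNA, fewer cells of a type and less RNA per cell cannot be told apart.

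NRF2 target genes were mostly higher in p62 TKO livers. Of 44 targets tested, 27 rose and 4 fell, and 13 did not pass, with a median log2 fold change of 0.89. Their summed level was 16948, 25676, 21968 and 37500 CPM in p62 TKO livers, against 15672.5 to 20624 CPM in TSC1 KO livers. These sums overlapped, as replicate 1 of p62 TKO lay within the TSC1 KO range. Replicate 4 of p62 TKO had the highest sum and also the highest Sqstm1 level, and a link between them was not tested. Slc7a11 (chromosome 3, 49892526 to 50443614, minus strand), the cystine transporter that feeds glutathione synthesis, had 139, 161, 136 and 337 CPM in p62 TKO livers, against 0.873, 0.474, 0.289 and 0.885 CPM in TSC1 KO livers (8.25 ± 0.75, adjusted p = 1.80e-07). Every p62 TKO library was far above every TSC1 KO library, and replicate 4 of p62 TKO was the highest. Abcc4, an exporter of bile acids and conjugates, had 82.3, 80.98, 69.99 and 192 CPM in p62 TKO livers, against 4.37, 8.997, 4.82 and 5.705 CPM in TSC1 KO livers (4.15 ± 0.39, adjusted p = 1.80e-07). Nqo1, the quinone reductase, had 42.5, 49.6, 39.9 and 129 CPM in p62 TKO livers, against 6.88, 8.24, 8.49 and 9.34 CPM in TSC1 KO livers (2.98 ± 0.39, adjusted p = 6.00e-06). Both showed the same order, with no overlap and with replicate 4 of p62 TKO highest. Cbr3, a carbonyl reductase, and Gpx2, a glutathione peroxidase, rose by 5.70 ± 0.53 (adjusted p = 1.89e-07) and 4.90 ± 0.61 (adjusted p = 4.17e-06) on the log2 scale. Gstm1, a glutathione S-transferase, rose by 1.19 ± 0.33 and Cyp2a5, a cytochrome P450 induced by NRF2, by 2.23 ± 0.58. Near-identical copies exist for the last pair, so their split of reads is uncertain.

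Of the 4 targets that fell, 2 were further transferases, and the others were Idh1 and Me1, which supply NADPH. Gsta3 had 772, 963, 1112 and 964 CPM in p62 TKO livers, against 2609, 1629, 2003 and 2036 CPM in TSC1 KO livers (-1.12 ± 0.20, adjusted p = 1.22e-04). Gstp1 had 147, 286, 283 and 412 CPM in p62 TKO livers, against 1435, 837, 734 and 759 CPM in TSC1 KO livers (-1.74 ± 0.47, adjusted p = 0.00543). In both transferases the groups did not overlap, and p62 TKO was lower. Idh1, the cytosolic NADP-dependent isocitrate dehydrogenase, fell, with a log2 fold change of -0.56 ± 0.16 (adjusted p = 0.00682), a call that was lost with total counts alone. The ferritin chains did not pass. Fth1, the heavy chain, had a log2 fold change of 0.47 ± 0.20 (adjusted p = 0.0605), and Ftl1, the light chain, -0.57 ± 0.25 (adjusted p = 0.0669). Fth1 passed with DESeq2 (0.46), with total counts alone (0.87) and without p62 TKO replicate 1 (0.59) or TSC1 KO replicate 1 (0.57). Ftl1 passed with DESeq2 (-0.59), with only the groups compared (-0.57) and without p62 TKO replicate 4 (-0.69). The 14 genes that control KEAP1 and NRF2 had 2 members higher, Maff and Tnfaip3, and 3 lower, Keap1, Sqstm1 and Dpp3, with a median of -0.04 that became 0.36 with total counts alone. These shares were 14.3% higher and 21.4% lower, against 23.5% and 17.5% over all genes. Maff, a small MAF partner of NRF2, rose (1.67 ± 0.38, adjusted p = 0.00133). Keap1, the repressor of NRF2, was lower (-0.39 ± 0.09, adjusted p = 0.00131), but with total counts alone its change was 0.01 with an adjusted p of 0.97. Nfe2l1, the NRF2 relative that controls proteasome genes, had a log2 fold change of 0.15 ± 0.09 (adjusted p = 0.171), and passed with total counts alone (0.55). Without p62 TKO replicate 1 or TSC1 KO replicate 1, 1 member of this list was lower in place of 3.

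**Figure D1:**
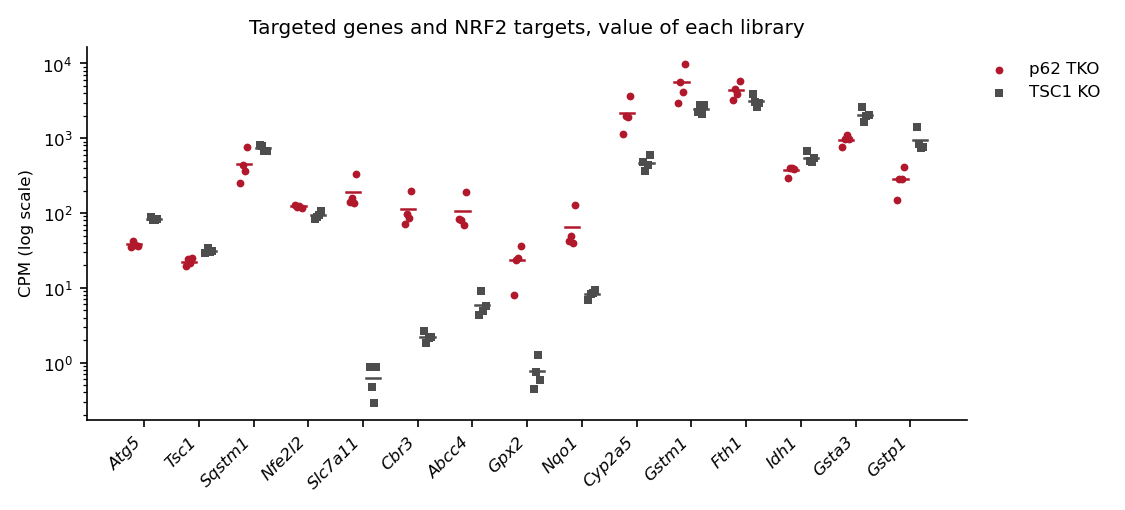
Levels of the 4 targeted genes and 11 NRF2 targets in CPM on a log axis, with 1 dot per library, p62 TKO left of TSC1 KO, and a line at the mean of each group. Slc7a11, Abcc4, Nqo1, Cbr3 and Gpx2 show separated groups with p62 TKO above, while Gsta3, Gstp1 and Idh1 show separated groups with p62 TKO below.

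Promoters of NRF2 targets are shown because members matching the same NRF2-binding pattern, in which some letters may vary, changed differently. The antioxidant response element core TGACNNNGC was searched on both strands in windows from 250 bases before to 50 after each RefSeq start on GRCm38.p6. It was found in 13 of 51 windows of NRF2 targets (25.5%), which are 11 of 38 genes with a window. The share was 12.4% in 32851 windows of all genes and 14.2% in 14591 windows of genes tested. Windows of the lysosome genes below held it in 8 of 32 cases, a similar share, so the core was not particular to NRF2 targets. Among the targets called higher that had a window, 7 of 23 held it. The 250 bases before the start follow, 5′ to 3′ on the gene's strand, with the core in capitals, for Abcc4, which was higher, Gclm, which was not called, and Gsta3, which was lower. Gclm, a subunit of the enzyme that starts glutathione synthesis (0.14 ± 0.13, adjusted p = 0.436, but 0.54 and called with total counts alone), was chosen after its values were seen. The windows are Abcc4 at chr14:118706220-118706469, minus strand, Gclm at chr3:122245307-122245556, plus strand and Gsta3 at chr1:21240335-21240584, plus strand.
Abcc4: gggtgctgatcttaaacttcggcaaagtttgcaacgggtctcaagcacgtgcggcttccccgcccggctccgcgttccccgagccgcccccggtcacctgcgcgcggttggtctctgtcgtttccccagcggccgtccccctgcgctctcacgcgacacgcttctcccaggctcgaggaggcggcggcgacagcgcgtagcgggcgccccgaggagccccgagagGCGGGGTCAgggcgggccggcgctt
Gclm: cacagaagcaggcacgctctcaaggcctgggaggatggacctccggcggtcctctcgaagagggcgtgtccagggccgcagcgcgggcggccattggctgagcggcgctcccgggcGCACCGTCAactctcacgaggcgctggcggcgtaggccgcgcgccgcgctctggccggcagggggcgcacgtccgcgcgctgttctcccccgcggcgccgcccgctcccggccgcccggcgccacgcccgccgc
Gsta3: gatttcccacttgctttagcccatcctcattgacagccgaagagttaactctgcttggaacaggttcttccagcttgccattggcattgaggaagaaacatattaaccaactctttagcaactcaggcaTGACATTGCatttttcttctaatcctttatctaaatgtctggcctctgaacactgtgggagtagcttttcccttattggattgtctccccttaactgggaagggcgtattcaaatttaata
The core lay 25 bases before the start in this Abcc4 window, 134 in Gclm and 121 in Gsta3. Another Abcc4 window, at chr14:118676932-118677181, minus strand, held the core 23 bases before its start and is not shown. These matches describe letters and not binding.

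The largest increases included genes that TSC1 KO livers hardly expressed. Serpinb9e, a serine protease inhibitor, had 14.99, 1.87, 4.99 and 21.998 CPM in p62 TKO livers, against 0, 0, 0 and 0 CPM in TSC1 KO livers. With 584 counts in p62 TKO and 0 in TSC1 KO, it was at least 151-fold higher, taking 3 counts for the whole TSC1 KO group as the floor. Muc13, an epithelial mucin, had 298 counts in p62 TKO and 0 in TSC1 KO and was at least 77.1-fold higher on the same floor. Apela, a peptide hormone of the apelin receptor, had 470 counts in p62 TKO and 1 in TSC1 KO, a ratio of 365 with a 95% exact counting interval of 65.2 to 14447. H19 (chromosome 7, 142575529 to 142578143, minus strand), an imprinted fetal long non-coding RNA, had 170.1, 789.9, 186 and 403 CPM in p62 TKO livers, against 0.546, 2.37, 1.35 and 3.54 CPM in TSC1 KO livers (7.61 ± 0.998, adjusted p = 9.35e-06). The p62 TKO libraries themselves spread widely for H19, with replicate 2 highest and replicate 1 lowest, yet all lay above TSC1 KO. Ly6d, a surface protein of squamous and progenitor cells, had 158, 308, 208 and 333 CPM in p62 TKO livers, against 1.09, 0.947, 1.35 and 4.72 CPM in TSC1 KO livers (6.94 ± 0.85, adjusted p = 4.72e-06). Spink1, a trypsin inhibitor raised in liver tumours, and Cpe, a carboxypeptidase, rose by 6.09 ± 0.81 (adjusted p = 8.48e-06) and 6.14 ± 0.57 (adjusted p = 1.56e-07). The groups did not overlap in any of these, but the rule for naming the largest changes required this. The same condition applied to Slc7a11 above and to Gpnmb and Lcn2 below, which were also among the largest increases. The fitted log2 fold change of Serpinb9e, which depends on the prior count, was 10.08 and was 9.49 without p62 TKO replicate 4, that of Apela 8.02 and 9.81 without TSC1 KO replicate 1, that of H19 6.97 without p62 TKO replicate 2, that of Ly6d 7.76 and that of Spink1 6.68 without TSC1 KO replicate 4.

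The largest decreases included genes of the male adult hepatocyte. Hsd3b5, a male-biased hydroxysteroid dehydrogenase (chromosome 3, 98618634 to 98630252, minus strand), had 0.0707, 0.0893, 0 and 0 CPM in p62 TKO livers, against 103, 8.24, 76.8 and 72.5 CPM in TSC1 KO livers. With 2 counts in p62 TKO and 2566 in TSC1 KO, the ratio was 1652-fold lower with a 95% counting interval of 457 to 13649. Mup7 (chromosome 4, 60066469 to 60070475, minus strand), a major urinary protein, had 2.19, 2.14, 5.07 and 0.622 CPM in p62 TKO livers, against 1519.6, 537, 1143 and 1464 CPM in TSC1 KO livers (-8.85 ± 1.46, adjusted p = 9.33e-05, or -9.46 without p62 TKO replicate 3). Elovl3, a fatty acid elongase, had 1.06, 0.804, 2.42 and 0.622 CPM in p62 TKO livers, against 269, 172, 192 and 132 CPM in TSC1 KO livers (-7.25 ± 1.47, adjusted p = 6.38e-04). Each p62 TKO library was below each TSC1 KO library for all 3 genes, but the rule for naming the largest changes required this. Replicate 2 was the lowest TSC1 KO library for Hsd3b5 and Mup7. Slco1a1, an organic anion importer, and Serpina1e, a member of the alpha-1 antitrypsin cluster, fell, with log2 fold changes of -5.29 ± 0.52 (adjusted p = 3.28e-07) and -5.49 ± 1.09 (adjusted p = 4.74e-04). Slc22a28, an organic anion transporter, had 3 counts in p62 TKO and 220 in TSC1 KO, a ratio of 94.4-fold lower with an interval of 31.9 to 461. Its log2 fold change was -6.32, and -9.10 without p62 TKO replicate 2. Nr4a1, an immediate-early nuclear receptor, had 3.32, 3.303, 5.14 and 4.43 CPM in p62 TKO livers, against 76.3, 30.02, 29.1 and 42.3 CPM in TSC1 KO livers (-3.45 ± 0.64, adjusted p = 2.52e-04). Its groups did not overlap either.

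Of 29 sex-dependent and growth hormone dependent genes tested, 19 fell and 1 rose, with a median of -1.91. Mup3 had 303, 430.4, 609 and 138 CPM in p62 TKO livers, against 10139, 7208, 10613 and 10310.3 CPM in TSC1 KO livers (-4.69 ± 0.75, adjusted p = 5.37e-05), and every p62 TKO library was lower. Mup20, another urinary protein, did not pass, with 2152, 7290.2, 4125 and 1939 CPM in p62 TKO livers, against 10338, 6194, 5269.7 and 5982 CPM in TSC1 KO livers (-0.84 ± 0.60, adjusted p = 0.278). Replicate 2 of p62 TKO lay among the TSC1 KO libraries for Mup20. Because Mup and Serpina1 genes are near-identical copies, the split of reads among them is uncertain. Ghr, the growth hormone receptor, fell, with a log2 fold change of -1.43 ± 0.23 (adjusted p = 4.31e-05). Igf1, the hormone made by liver under growth hormone and chosen here after its values were seen, fell, with a log2 fold change of -1.07 ± 0.19 (adjusted p = 1.44e-04). Because the labels give no sex, a transcript of each sex was read. Xist, made from the inactive X chromosome, stood at 0.147 to 0.855 CPM in p62 TKO and 0.0965 to 0.379 CPM in TSC1 KO, and the Y-linked Ddx3y at 68.9 to 82.2 CPM in p62 TKO and 82.9 to 104 CPM in TSC1 KO.

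**Figure D2:**
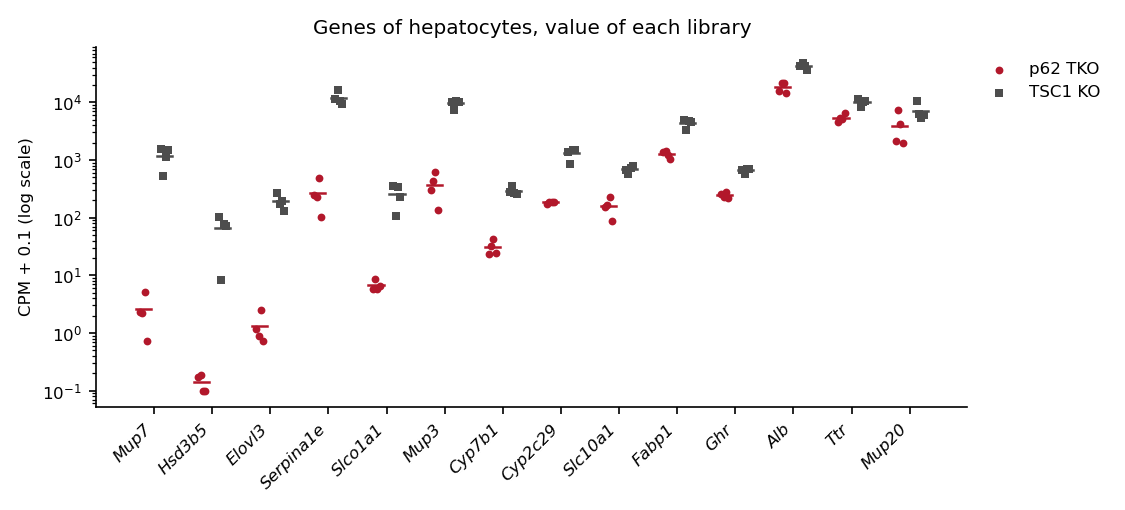
Levels of 14 hepatocyte genes as CPM + 0.1 on a log axis, with 1 dot per library, p62 TKO left of TSC1 KO, and a line at the group mean. Mup7, Hsd3b5, Elovl3, Slco1a1 and Serpina1e are lower in all 4 p62 TKO libraries, and Mup20 overlaps.

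Of 26 hepatocyte identity genes, 18 fell and 0 rose, with a median of -0.82. Alb, serum albumin, had 15869.5, 21185, 21217 and 14706 CPM in p62 TKO livers, against 43212, 47317, 43095 and 36389.7 CPM in TSC1 KO livers (-1.22 ± 0.27, adjusted p = 8.44e-04). Apoa1, the main protein of high-density lipoprotein, and Ttr, transthyretin, fell, with log2 fold changes of -0.93 ± 0.21 and -0.91 ± 0.20. Cebpa, a transcription factor of mature hepatocytes, had 283, 367, 289.8 and 292 CPM in p62 TKO livers, against 563, 486, 539.5 and 568 CPM in TSC1 KO livers (-0.81 ± 0.14, adjusted p = 6.62e-05), with no overlap. Hnf4a, another such factor, had a log2 fold change of -0.02 ± 0.25 (adjusted p = 0.966) and did not pass, and was chosen after its values were seen. Both ends of the liver lobule were affected. Of 22 pericentral genes, 14 fell and 1, Ahr, rose (median -1.05), and of 18 periportal genes, 11 fell and 1, Ctsc, rose (median -0.98), although 7 periportal genes were lower with no filter on low counts and without p62 TKO replicate 1 or 4. Cyp2e1, the pericentral ethanol-metabolising P450, had 2209.6, 2073, 2212 and 1816 CPM in p62 TKO livers, against 6011, 3536, 6741 and 6234 CPM in TSC1 KO livers (-1.44 ± 0.24, adjusted p = 6.52e-05). Oat, ornithine aminotransferase of pericentral cells, and Glul, glutamine synthetase, fell, with log2 fold changes of -1.59 ± 0.27 (adjusted p = 7.52e-05) and -0.99 ± 0.29 (adjusted p = 0.00863), and the call of Glul was lost with total counts alone. On the periportal side, Gls2, the liver glutaminase, had 120.4, 212, 205 and 135 CPM in p62 TKO livers, against 499.9, 863, 532 and 557 CPM in TSC1 KO livers (-1.87 ± 0.35, adjusted p = 2.39e-04), and Arg1, arginase, fell, with a log2 fold change of -1.35 ± 0.27 (adjusted p = 3.49e-04). For Alb, Cyp2e1, Gls2 and Arg1 all p62 TKO libraries were below all TSC1 KO libraries.

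Mitochondrial and metabolic lists mostly pointed the same way. All 32 oxidative phosphorylation genes fell, with a median of -0.72, and 17 were still lower with total counts alone (median -0.33). Sdha, a subunit of complex II, had 313, 343, 374 and 291 CPM in p62 TKO livers, against 783, 676, 628 and 604 CPM in TSC1 KO livers (-1.03 ± 0.16, adjusted p = 2.32e-05). Ndufv1, a subunit of complex I, fell, with a log2 fold change of -0.88 ± 0.13 (adjusted p = 1.43e-05). The mitochondrially encoded mt-Cytb had a log2 fold change of -0.78 ± 0.20 (adjusted p = 0.00397) and Atp5b, of the ATP synthase, -0.62 ± 0.16 (adjusted p = 0.00286), and both calls were lost with total counts alone. Of 30 genes of fatty acid oxidation and PPARA targets, 14 fell and 2 rose (median -0.35, but 0.06 with total counts alone, and 4 higher when only these groups were fitted). Fabp1, the liver fatty acid binding protein, fell, with a log2 fold change of -1.78 ± 0.40, while Cd36, a fatty acid importer, had 189, 218, 195 and 259.8 CPM in p62 TKO livers, against 59.7, 100.1, 75.1 and 71.2 CPM in TSC1 KO livers (1.49 ± 0.32, adjusted p = 8.74e-04). No library of one group reached the other for Cd36. Acot2, a mitochondrial thioesterase, rose too (2.13 ± 0.38, adjusted p = 1.10e-04).

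Lipid synthesis genes were lower as well. Of 21 lipogenesis genes, 15 fell and 1 rose (median -0.91), and of 24 cholesterol synthesis genes, 11 fell and 0 rose (median -0.59). Mlxipl, which encodes the glucose-responsive factor ChREBP, had 164, 215, 219 and 259 CPM in p62 TKO livers, against 447, 383, 463 and 521 CPM in TSC1 KO livers (-1.08 ± 0.19, adjusted p = 1.12e-04). Scd1, the liver stearoyl-CoA desaturase, and Fads1, another desaturase, fell, with log2 fold changes of -1.32 ± 0.37 (adjusted p = 0.00674) and -1.02 ± 0.19 (adjusted p = 1.93e-04). The member that rose was Scd2, a desaturase paralog of other tissues, with 93.9, 90.4, 97.5 and 186 CPM in p62 TKO livers, against 22.4, 53.9, 26.8 and 28.4 CPM in TSC1 KO livers (1.83 ± 0.34, adjusted p = 2.45e-04). Stard4, a cholesterol carrier, and Fdps, of the mevalonate pathway, fell, with log2 fold changes of -1.22 ± 0.17 and -1.37 ± 0.28. The groups did not overlap in any of these 6 genes, which the naming rule picked by adjusted p, level or direction. Of 23 bile acid genes tested, 12 fell and 2 rose (median -0.70). Slc10a1, the bile acid importer NTCP, had 151, 162, 224 and 88.2 CPM in p62 TKO livers, against 676, 560.4, 719 and 784 CPM in TSC1 KO livers (-2.13 ± 0.28, adjusted p = 3.59e-06). Cyp7b1, of the alternative bile acid pathway, fell, with a log2 fold change of -3.25 ± 0.61 (adjusted p = 2.93e-04), and Abcc4 above and Slc51b, a bile acid exporter subunit (2.79 ± 0.60, adjusted p = 7.48e-04), rose. Of 28 drug-metabolising P450 genes, 12 fell and 4 rose (median -0.62), with Cyp2c29 at -2.84 ± 0.34 (adjusted p = 1.77e-06). Those that rose were Cyp1a1, the Cyp2a5 above, Por, the reductase that feeds electrons to P450 enzymes (1.12 ± 0.35, adjusted p = 0.0125), and Cyp2a4, a steroid hydroxylase nearly identical to Cyp2a5 (6.72 ± 1.11, adjusted p = 9.79e-05, or 7.52 without TSC1 KO replicate 1).

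Glycolysis genes were called about as often as all genes. Of 25 members 7 rose and 5 fell, against 23.5% higher and 17.5% lower over all genes, and the median of -0.14 became 0.24 with total counts alone. Pkm, the pyruvate kinase of non-hepatocytes and growing tissue, had 54.9, 45.98, 55.004 and 46.5 CPM in p62 TKO livers, against 15.1, 12.7, 12.9 and 13.5 CPM in TSC1 KO livers (1.90 ± 0.19, adjusted p = 2.32e-07). Pklr, the hepatocyte pyruvate kinase, had 56.6, 45.4, 60.2 and 53.6 CPM in p62 TKO livers, against 191, 81.2, 154 and 158 CPM in TSC1 KO livers (-1.44 ± 0.26, adjusted p = 1.39e-04). All p62 TKO libraries were higher for Pkm and lower for Pklr. Ldhd, a lactate dehydrogenase, and Pfkm, the muscle-type phosphofructokinase, were also among those that fell. Pfkp, the platelet-type phosphofructokinase, rose by 2.80 ± 0.22 (adjusted p = 1.64e-08). Pdk1, a kinase that inhibits pyruvate dehydrogenase, fell, with a log2 fold change of -1.80 ± 0.23 (adjusted p = 3.87e-06).

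**Figure D3:**
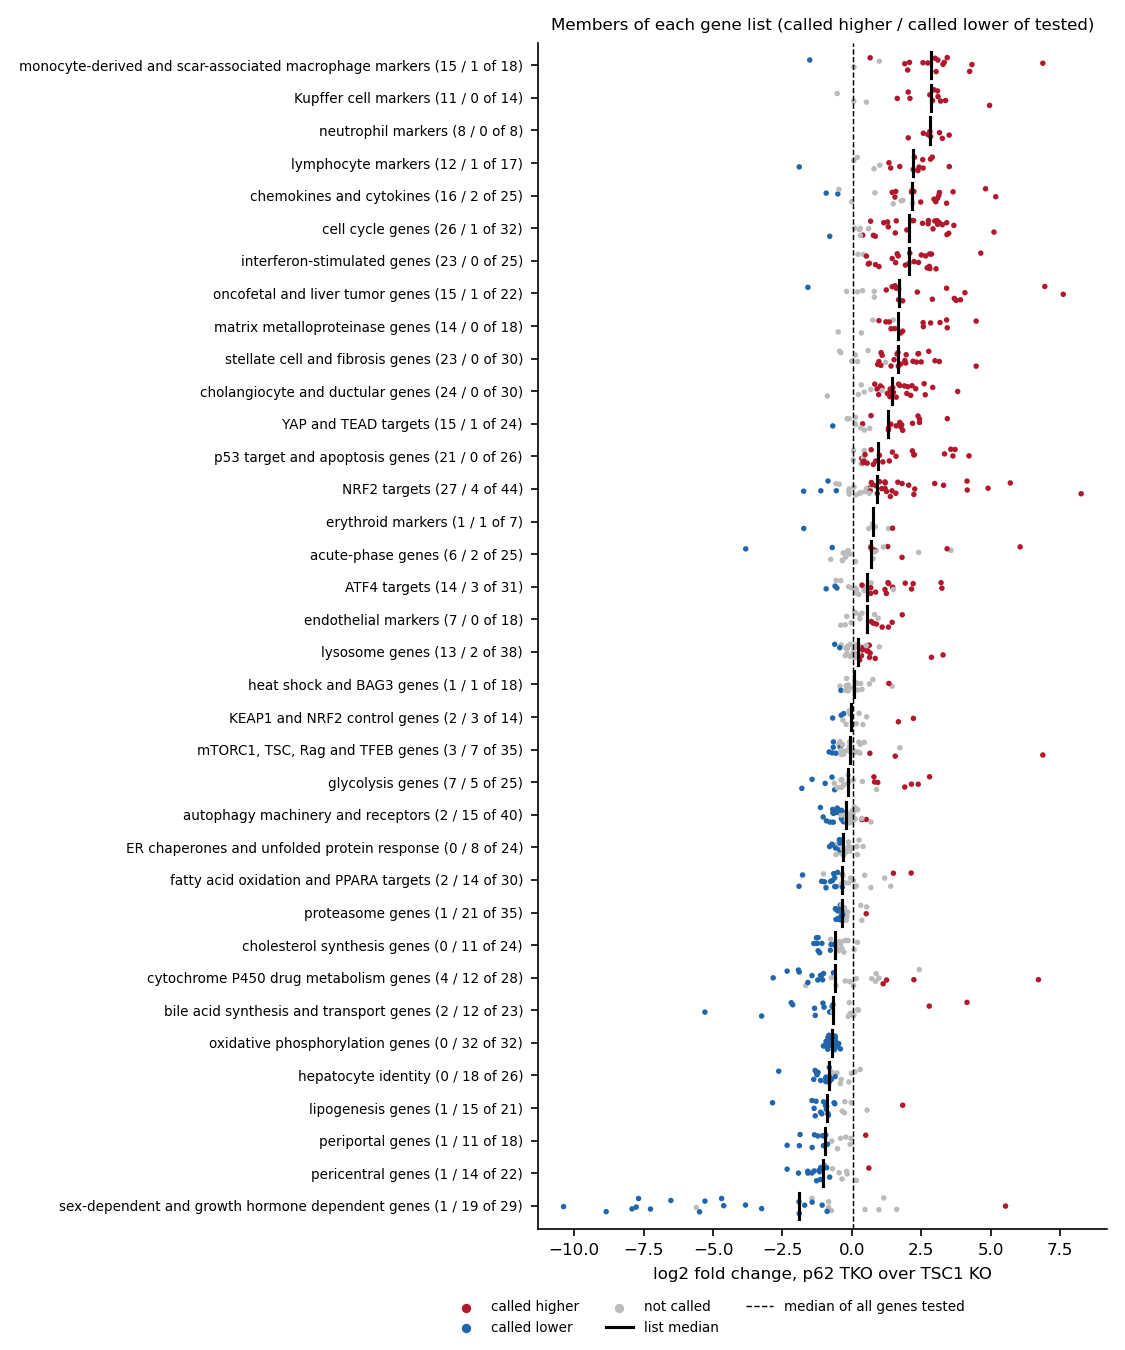
Log2 fold change of p62 TKO over TSC1 KO for each tested member of the gene lists, with red dots called higher, blue dots called lower, grey dots not called, a black tick at each list's median and a dashed line at the median of all genes. Oxidative phosphorylation genes lie left of zero in all 32 members, and macrophage, interferon and cell cycle lists lie mostly to the right.

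Markers of cells other than hepatocytes were mostly higher. The summed level of the cholangiocyte and ductular list was 4469 to 5687 CPM in p62 TKO livers and 1489 to 1791 CPM in TSC1 KO livers, that of Kupffer cell markers 611 to 901 CPM in p62 TKO livers and 182 to 287 CPM in TSC1 KO livers, and that of monocyte-derived and scar-associated macrophage markers 4056 to 5108 CPM in p62 TKO livers and 1650.4 to 2013 CPM in TSC1 KO livers. None of these sums overlapped between the groups. Spp1, whose levels are given below, belongs to both the ductular and the macrophage list. It made up the larger part of both sums in every p62 TKO library, so these sums are not separate measures of different cell types. Neutrophil markers summed to 15.3 to 54.4 CPM in p62 TKO livers and 2.798 to 5.31 CPM in TSC1 KO livers, again without overlap. Stellate cell and fibrosis genes summed to 973 to 2008 CPM in p62 TKO livers and 599.9 to 1114 CPM in TSC1 KO livers, lymphocyte markers to 91.96 to 189 CPM in p62 TKO livers and 47.6 to 106 CPM in TSC1 KO livers, endothelial markers to 183 to 403 CPM in p62 TKO livers and 207 to 278 CPM in TSC1 KO livers and erythroid markers to 188 to 324 CPM in p62 TKO livers and 153 to 248 CPM in TSC1 KO livers. These 4 sums overlapped between the groups. Neutrophil members Ly6g, Mpo, Elane, Camp and Stfa1 and lymphocyte members Klrb1c, Ncr1 and Prf1 had too few counts to be tested. How far these sums set the changes of other gene groups was not tested.

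**Figure D4:**
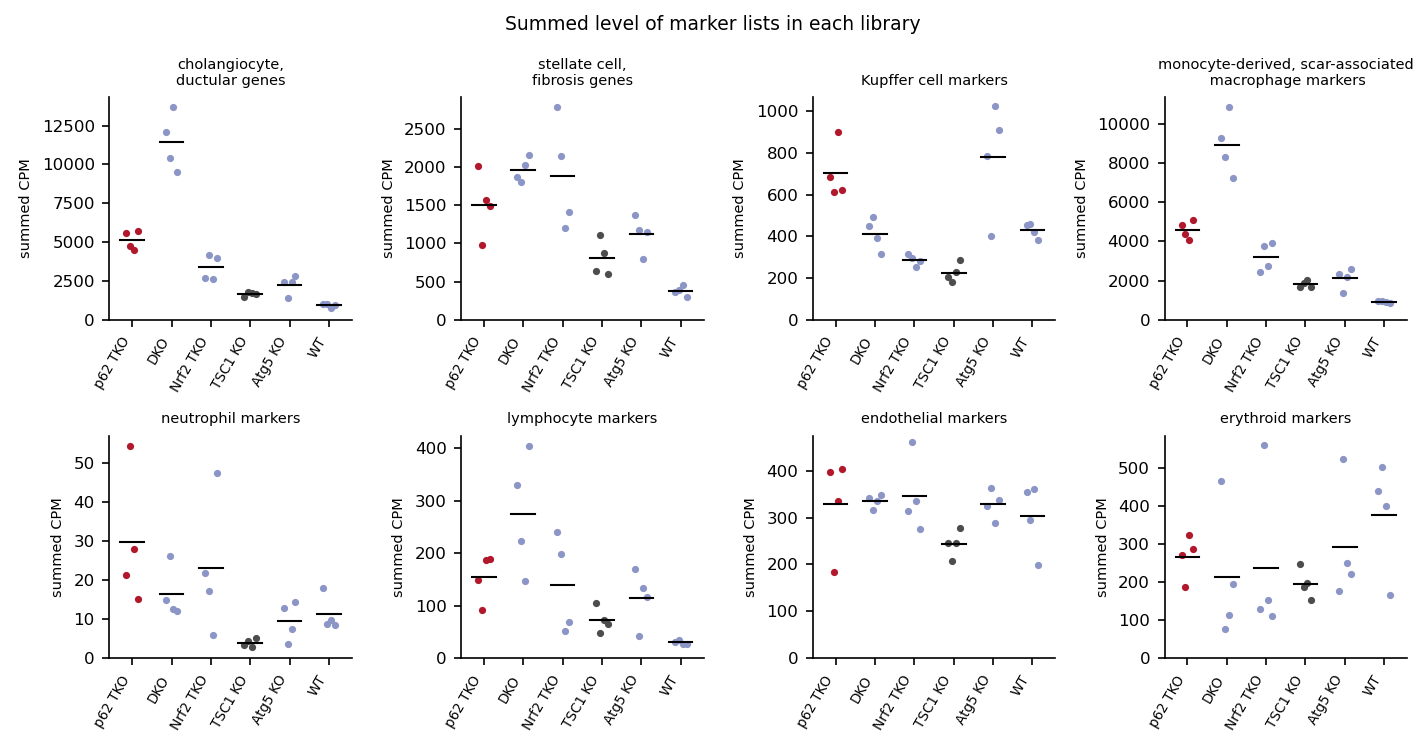
Summed CPM of 8 lists of cell type markers in each of the 24 libraries, with 1 dot per library, a line at the group mean and groups in the order p62 TKO, DKO, Nrf2 TKO, TSC1 KO, Atg5 KO and WT. Ductular, Kupffer, macrophage and neutrophil sums of p62 TKO lie above those of TSC1 KO in all 4 libraries. Spp1 counts in both the ductular and the macrophage sum.

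Of 30 cholangiocyte and ductular genes, 24 rose and 0 fell, with a median of 1.44. Spp1, osteopontin, had 3155, 2575, 2255 and 3429.96 CPM in p62 TKO livers, against 509, 814, 849 and 665 CPM in TSC1 KO livers (2.01 ± 0.27, adjusted p = 6.83e-06). Ddr1, a collagen receptor of epithelium, had 58.7, 37.9, 38.3 and 40.6 CPM in p62 TKO livers, against 5.57, 11.2, 10.04 and 8.75 CPM in TSC1 KO livers (2.30 ± 0.24, adjusted p = 2.71e-07). Cldn4, a tight junction protein of ducts, had 27.3, 9.82, 12.4 and 7.46 CPM in p62 TKO livers, against 1.75, 2.37, 3.57 and 1.67 CPM in TSC1 KO livers (2.60 ± 0.37, adjusted p = 1.51e-05). All 3 were higher in every p62 TKO library, and replicate 1 of p62 TKO was the highest for Ddr1 and Cldn4. Sox4, a transcription factor of biliary development, and St14, an epithelial protease, rose by 1.89 ± 0.26 and 2.16 ± 0.28. Krt8 and Krt18, keratins shared by hepatocytes and ducts, rose by 1.38 ± 0.24 and 1.02 ± 0.20. The duct-defining Krt19 and Sox9, chosen after their values were seen, had log2 fold changes of 1.08 ± 0.33 (adjusted p = 0.0113) and 1.37 ± 0.25 (adjusted p = 2.12e-04), and Krt19 was at 0.47 (adjusted p = 0.14) without p62 TKO replicate 1 and did not pass with only the groups compared.

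Of 22 oncofetal and liver tumor genes tested, 15 rose and 1, the imprinted RNA Meg3, fell (median 1.69), with H19, Ly6d and Scd2 above among them. Cd44, a hyaluronan receptor, had 39.7, 37.1, 38.6 and 43.5 CPM in p62 TKO livers, against 2.73, 3.98, 4.25 and 3.93 CPM in TSC1 KO livers (3.41 ± 0.25, adjusted p = 6.64e-09). Golm1, the Golgi protein GP73, rose by 2.90 ± 0.33, and Igf2bp3, a fetal RNA-binding protein, had 3.61, 8.48, 3.89 and 7.38 CPM in p62 TKO livers, against 0.437, 0.379, 0.482 and 0.393 CPM in TSC1 KO livers (3.75 ± 0.54, adjusted p = 1.14e-05). The groups were separate for Cd44 and Igf2bp3, and the p62 TKO levels of Igf2bp3 were still low. YAP is a coactivator of the TEAD transcription factors that responds to cell shape and loss of Hippo signalling. The list of their targets, which also holds the regulator genes Yap1, Wwtr1, Tead1 and Tead4, had 15 of 24 members higher and 1, Dlc1, lower (median 1.32). Ankrd1, a classical target, had 109.6, 31.5, 43.2 and 29.8 CPM in p62 TKO livers, against 2.84, 3.22, 5.5002 and 8.16 CPM in TSC1 KO livers (3.44 ± 0.50, adjusted p = 2.21e-05), and its change was 2.81 without p62 TKO replicate 1, the highest library. Axl, a receptor tyrosine kinase, had 67.6, 33.7, 61.8 and 43.9 CPM in p62 TKO livers, against 5.89, 10.04, 10.3 and 11.9999 CPM in TSC1 KO livers (2.43 ± 0.27, adjusted p = 7.90e-07). Myof, myoferlin, rose by 2.38 ± 0.32. Of the regulators themselves, Tead1 and Wwtr1, which encodes TAZ, rose by 1.40 ± 0.21 (adjusted p = 1.98e-05) and 1.32 ± 0.19 (adjusted p = 9.97e-06), while Yap1 had a log2 fold change of -0.18 ± 0.12 (adjusted p = 0.263) and did not pass.

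Because most members of the YAP and TEAD list were higher, promoters of the whole list, the regulator genes included, were searched for the TEAD element CATTCC on both strands. It was found in 11 of 18 windows of the list (61.1%), which are 10 of 16 genes with a window, and in 14.7% of all windows. Of the members called higher that had a window, 7 of 10 held it. The 250 bases before the start of Ankrd1 (chr19:36119845-36120094, minus strand) and Axl (chr7:25788734-25788983, minus strand), with the element in capitals on either strand, are shown as 2 targets that rose.
Ankrd1: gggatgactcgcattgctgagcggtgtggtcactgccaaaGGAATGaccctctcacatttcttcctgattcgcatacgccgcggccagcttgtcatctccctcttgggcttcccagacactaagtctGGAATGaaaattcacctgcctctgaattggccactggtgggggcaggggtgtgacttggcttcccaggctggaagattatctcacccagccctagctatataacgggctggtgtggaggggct
Axl: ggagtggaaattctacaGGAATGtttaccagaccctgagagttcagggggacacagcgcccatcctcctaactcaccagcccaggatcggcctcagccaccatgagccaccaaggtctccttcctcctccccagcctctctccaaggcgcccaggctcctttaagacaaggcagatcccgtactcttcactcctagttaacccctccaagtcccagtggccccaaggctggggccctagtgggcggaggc
The element lay 210 and 123 bases before the start in Ankrd1 and 233 in Axl.

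Fibrosis genes rose in 23 of 30 members and fell in 0, with a median of 1.64. Col1a1, a fibrillar collagen of activated stellate cells, had 149, 59.2, 92.9 and 94.6 CPM in p62 TKO livers, against 8.84, 15.8, 18.4 and 14.95 CPM in TSC1 KO livers (2.77 ± 0.34, adjusted p = 2.96e-06). Col3a1, another fibrillar collagen, had 297, 99.6, 199 and 222 CPM in p62 TKO livers, against 25.9, 47.7, 52.5 and 37.3 CPM in TSC1 KO livers (2.32 ± 0.36, adjusted p = 3.99e-05). The groups did not overlap, and replicate 1 of p62 TKO was highest and replicate 2 lowest for both collagens. Timp1, an inhibitor of matrix proteases, had 5.66, 9.91, 5.51 and 4.12 CPM in p62 TKO livers, against 0.218, 0.189, 0.386 and 0.295 CPM in TSC1 KO livers (4.47 ± 0.40, adjusted p = 7.38e-08). Loxl2, a collagen crosslinker, Tgfb1, the main profibrotic cytokine, and Col4a1, of basement membrane, rose by 3.15 ± 0.34, 1.66 ± 0.17 and 1.94 ± 0.23. Dcn, decorin, which quiescent stellate cells and fibroblasts also make, had 189, 75.4, 132 and 213 CPM in p62 TKO livers, against 141, 114, 175 and 128 CPM in TSC1 KO livers (0.13 ± 0.29, adjusted p = 0.76). The TSC1 KO libraries lay within the range of the p62 TKO libraries. Of 18 matrix metalloproteinase genes, 14 rose and 0 fell (median 1.65), with Mmp12 of macrophages at 3.43 ± 0.59 (adjusted p = 1.04e-04), Mmp14, a membrane collagenase, at 1.22 ± 0.19 (adjusted p = 2.69e-05) and Adamts1 at 1.83 ± 0.30 (adjusted p = 7.32e-05).

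Of 14 Kupffer cell markers, 11 rose and 0 fell (median 2.85). The TSC1 KO level was itself low, as 13 of these markers were lower and 0 higher in TSC1 KO than in WT livers (median -2.06). C1qa, a complement subunit of tissue macrophages, had 122, 85.7, 132 and 93.8 CPM in p62 TKO livers, against 12.3, 10.04, 13.03 and 22.6 CPM in TSC1 KO livers (2.90 ± 0.31, adjusted p = 6.91e-07). Adgre1, which encodes F4/80, had 24.3, 14.6, 26.95 and 13.1 CPM in p62 TKO livers, against 1.31, 1.705, 2.32 and 3.25 CPM in TSC1 KO livers (3.19 ± 0.35, adjusted p = 6.89e-07). Both were higher in all p62 TKO libraries. Timd4, a receptor of resident Kupffer cells, rose by 3.37 ± 0.55 (adjusted p = 4.46e-05), or 4.02 without TSC1 KO replicate 4, and Slc40a1, the iron exporter that hepatocytes make too, had a log2 fold change of 0.07 ± 0.20 (adjusted p = 0.821). Of 18 monocyte-derived and scar-associated macrophage markers, 15 rose and 1 fell (median 2.86). Gpnmb, a glycoprotein of lipid- and scar-associated macrophages, had 31.03, 37.9, 30.8 and 56.4 CPM in p62 TKO livers, against 0.218, 0.474, 0.289 and 0.295 CPM in TSC1 KO livers (6.87 ± 0.48, adjusted p = 5.98e-09). Cd63, a tetraspanin of late endosomes, had 126, 106, 124 and 224 CPM in p62 TKO livers, against 11.02, 16.2, 16.6 and 15.7 CPM in TSC1 KO livers (3.28 ± 0.28, adjusted p = 5.98e-08). Both showed separate groups with replicate 4 of p62 TKO highest. Lyz2, lysozyme, Lgals3, galectin-3, and Cd68 rose by 3.10 ± 0.28, 4.32 ± 0.39 and 2.995 ± 0.33. The member that fell was Fabp5, a fatty acid binding protein, with 70.4, 101, 103 and 47.5 CPM in p62 TKO livers, against 206, 242, 237 and 236 CPM in TSC1 KO livers (-1.52 ± 0.42, adjusted p = 0.00662).

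Neutrophil and lymphocyte markers were mostly higher too. All 8 neutrophil markers tested rose (median 2.82), but 4 were called without p62 TKO replicate 2 and 5 without TSC1 KO replicate 1. S100a9, a calcium-binding protein of neutrophils, had 6.01, 20.7, 8.59 and 4.04 CPM in p62 TKO livers, against 0.764, 1.14, 0.579 and 1.57 CPM in TSC1 KO livers (3.26 ± 0.67, adjusted p = 6.05e-04, or 2.57 without p62 TKO replicate 2). Csf3r, the G-CSF receptor, rose by 2.81 ± 0.47, or 3.57 without TSC1 KO replicate 4. The p62 TKO libraries were above the TSC1 KO libraries in both genes. Of 17 lymphocyte markers tested, 12 rose and 1 fell (median 2.21). Igkc, the immunoglobulin kappa constant region, had 86.8, 58.7, 129 and 155 CPM in p62 TKO livers, against 8.95, 26.1, 24.8 and 12.5 CPM in TSC1 KO livers (2.56 ± 0.59, adjusted p = 0.00185), and Nkg7 and Cd8b1, of cytotoxic cells, rose by 2.89 ± 0.47 and 3.51 ± 0.59. Ighm, the IgM heavy chain, had 12.9, 9.29, 14.98 and 11.9 CPM in p62 TKO livers, against 88.9, 8.24, 43.04 and 43.2 CPM in TSC1 KO livers (-1.90 ± 0.57, adjusted p = 0.012), with overlap, and its call was lost without TSC1 KO replicate 1 (-1.38, adjusted p = 0.06). Of 18 endothelial markers, 7 rose and 0 fell (median 0.53), and 4 were called without p62 TKO replicate 1, p62 TKO replicate 4 or TSC1 KO replicate 3. Stab1 rose by 1.31 ± 0.19, Stab2, a sinusoidal scavenger receptor, had a log2 fold change of -0.24 ± 0.18 (adjusted p = 0.308), and Pecam1, a general endothelial marker, had a log2 fold change of 0.77 ± 0.25 (adjusted p = 0.0172), which was 0.59 (adjusted p = 0.084) without p62 TKO replicate 1 and was also lost without TSC1 KO replicate 1.

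Of 25 interferon-stimulated genes, 23 rose and 0 fell, with a median of 2.05. Irf7, a factor that amplifies interferon responses, had 104, 94.99, 166 and 55.8 CPM in p62 TKO livers, against 22.05, 21.02, 24.8 and 31.5 CPM in TSC1 KO livers (2.08 ± 0.30, adjusted p = 1.32e-05). Oas2, which senses double-stranded RNA, and Mx1, an antiviral GTPase, rose by 2.79 ± 0.39 (adjusted p = 9.20e-06) and 2.87 ± 0.41 (adjusted p = 1.11e-05). Stat2, a component of the factor that turns these genes on, had a log2 fold change of 0.22 ± 0.15 (adjusted p = 0.267) and was called only with total counts alone (0.61). Of 25 chemokine and cytokine genes tested, 16 rose and 2, Cxcl12 and Ccl25, fell (median 2.17). Ccl2, which recruits monocytes, had 17.1, 15.4, 18.7 and 11.5 CPM in p62 TKO livers, against 0.546, 0.379, 0.289 and 0.492 CPM in TSC1 KO livers (5.18 ± 0.74, adjusted p = 1.81e-05). Ccl6 and Cxcl16 rose by 3.64 ± 0.47 and 2.14 ± 0.24, and Cxcl12, a homeostatic chemokine, had 270.4, 199, 241 and 198 CPM in p62 TKO livers, against 360.3, 462, 474 and 429 CPM in TSC1 KO livers (-0.93 ± 0.21, adjusted p = 0.00136). No library of one group reached the other for Irf7, Ccl2 or Cxcl12. The macrophage sums given above were higher in p62 TKO livers too, and a link between them and these lists was not tested.

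Of 32 cell cycle genes, 26 rose and 1, Tk1, fell (median 2.07). Mki67, a marker of cycling cells, had 23.6, 25.7, 22.8 and 30.1 CPM in p62 TKO livers, against 1.31, 2.94, 1.25 and 3.54 CPM in TSC1 KO livers (3.49 ± 0.46, adjusted p = 6.32e-06). Ccnb1, the mitotic cyclin, had 5.58, 8.21, 6.68 and 8.395 CPM in p62 TKO livers, against 0.109, 0.189, 0.289 and 0.197 CPM in TSC1 KO livers (5.11 ± 0.56, adjusted p = 4.92e-07). Both were higher in every p62 TKO library. Cdk1 and Ccnd1, which drive mitosis and entry into the cycle, rose by 2.54 ± 0.35 and 1.98 ± 0.30. Bulk RNA does not say which cells these transcripts came from. Of 26 p53 target and apoptosis genes tested, 21 rose and 0 fell (median 0.92). Pmaip1 (NOXA) and Phlda3, pro-apoptotic p53 targets, rose by 3.71 ± 0.38 (adjusted p = 2.37e-07) and 3.56 ± 0.36 (adjusted p = 1.80e-07), Ccng1 by 0.99 ± 0.15, and the anti-apoptotic Mcl1 by 0.44 ± 0.12. Cdkn1a, which encodes the cell cycle inhibitor p21 and was chosen after its values were seen, had 49.8, 79.2, 49.6 and 81.6 CPM in p62 TKO livers, against 7.64, 9.38, 4.82 and 3.93 CPM in TSC1 KO livers (3.33 ± 0.65, adjusted p = 4.44e-04).

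Autophagy genes leaned lower. Of 40 genes of autophagy machinery and receptors, 15 fell and 2, Fundc1 and Atg12, rose, and the median of -0.20 became 0.20 with total counts alone, where 4 fell and 15 rose. Atg3, the enzyme that conjugates LC3, had 66.7, 68.9, 72.6 and 67.7 CPM in p62 TKO livers, against 121, 103, 103 and 118 CPM in TSC1 KO livers (-0.69 ± 0.11, adjusted p = 3.19e-05). Atg101, a subunit of the initiating ULK1 complex, had 24.7, 33.9, 27.4 and 25.4 CPM in p62 TKO livers, against 64.8, 56.3, 54.8 and 52.6 CPM in TSC1 KO livers (-1.04 ± 0.18, adjusted p = 8.79e-05). Gabarapl1, of the LC3 family, had 576, 606, 555 and 599.6 CPM in p62 TKO livers, against 880.3, 1276, 1187 and 1068 CPM in TSC1 KO livers (-0.92 ± 0.20, adjusted p = 8.33e-04). In all 3, each p62 TKO library was below each TSC1 KO library. Atg7, the activating enzyme, had a log2 fold change of -0.56 ± 0.10 (adjusted p = 7.71e-05), a call lost with total counts alone. Gabarap had a log2 fold change of -0.002 ± 0.14 (adjusted p = 0.993) and 0.39 (adjusted p = 0.009) with total counts alone, and Fundc1, a receptor for mitophagy, rose (0.52 ± 0.14, adjusted p = 0.00451). Of 35 genes of mTORC1, TSC, the Rag GTPases and TFEB, 7 fell and 3, Rragd, Castor1 and Gpnmb, rose (median -0.08, and 0.32 with total counts alone, where 1 fell and 19 rose). Rragd, a Rag GTPase and TFEB-family target, had 137, 92.7, 113 and 135 CPM in p62 TKO livers, against 30.6, 53.2, 41.3 and 36.5 CPM in TSC1 KO livers (1.56 ± 0.30, adjusted p = 3.41e-04). Deptor, an inhibitor inside mTOR complexes, had 236, 283, 231 and 310.4 CPM in p62 TKO livers, against 466, 493, 455 and 459 CPM in TSC1 KO livers (-0.82 ± 0.14, adjusted p = 5.32e-05). Both had separate groups, with Rragd higher and Deptor lower in p62 TKO livers.

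Of 38 lysosome genes, 13 rose and 2 fell (median 0.21), with 7 higher without TSC1 KO replicate 4 and 28 with total counts alone. Ctss, a cathepsin of macrophages, had 158, 97.05, 159 and 117 CPM in p62 TKO livers, against 11.8, 17.05, 20.6 and 23.3 CPM in TSC1 KO livers (2.86 ± 0.30, adjusted p = 3.75e-07). The macrophage sums above were higher too, and a link with Ctss was not tested. Ppt1, a lysosomal thioesterase, Ctsd, an aspartic protease, and Psap, the saposin precursor, rose by 0.84 ± 0.10 (adjusted p = 1.82e-06), 0.66 ± 0.14 (adjusted p = 6.89e-04) and 0.63 ± 0.13 (adjusted p = 5.53e-04), and Ctsb by 0.58 ± 0.14. Ctsl had a log2 fold change of -0.06 ± 0.18 (adjusted p = 0.823). Gaa, the acid glucosidase, and Lamp2, a membrane protein needed for autophagosome fusion, fell (-0.62 ± 0.10 (adjusted p = 6.86e-05) and -0.44 ± 0.13 (adjusted p = 0.0117)), and both calls were lost with total counts alone.

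TFEB and its relatives bind an E-box, and its core CACGTG was found in 14 of 32 lysosome promoter windows (43.8%), which are 14 of 29 genes with a window, and in 7.15% of all windows. Of the lysosome genes called higher that had a window, 4 of 11 held it. Ctsd (chr7:142387828-142388077, minus strand), which rose, and Gaa (chr11:119267713-119267962, plus strand), which fell, are shown because both hold the core, in capitals. The core equals its own reverse complement.
Ctsd: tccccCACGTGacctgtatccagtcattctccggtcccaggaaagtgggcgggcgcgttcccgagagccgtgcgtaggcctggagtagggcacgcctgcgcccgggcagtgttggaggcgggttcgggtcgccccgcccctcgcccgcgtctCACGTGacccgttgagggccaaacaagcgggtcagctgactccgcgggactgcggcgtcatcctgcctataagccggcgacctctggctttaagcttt
Gaa: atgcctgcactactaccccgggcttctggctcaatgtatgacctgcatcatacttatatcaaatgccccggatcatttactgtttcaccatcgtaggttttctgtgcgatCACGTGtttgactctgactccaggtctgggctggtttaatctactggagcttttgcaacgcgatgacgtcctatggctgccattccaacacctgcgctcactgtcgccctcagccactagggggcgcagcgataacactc
The core lay 245 and 98 bases before the start in Ctsd and 140 in Gaa.

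Stress lists moved in different directions. Of 31 ATF4 targets, 14 rose and 3 fell (median 0.55). Psat1, of serine synthesis, had 20.7, 20.5, 17.6 and 35.2 CPM in p62 TKO livers, against 1.201, 3.88, 2.32 and 2.66 CPM in TSC1 KO livers (3.21 ± 0.32, adjusted p = 1.56e-07), and Slc3a2, a subunit of amino acid transporters and partner of Slc7a11, rose by 1.32 ± 0.19 (adjusted p = 1.25e-05). The 3 that fell were Shmt2, of mitochondrial folate metabolism (-0.93 ± 0.15, adjusted p = 3.92e-05), Aars, the alanyl-tRNA synthetase (-0.61 ± 0.15, adjusted p = 0.00264), and Atf4 itself (-0.54 ± 0.16, adjusted p = 0.00999), and the calls of Aars and Atf4 were lost with total counts alone. Of 24 ER chaperones and genes of the unfolded protein response, 8 fell and 0 rose. Their median of -0.34 became 0.06 with total counts alone, 4 were lower with no filter on low counts and without p62 TKO replicate 1, p62 TKO replicate 4 or TSC1 KO replicate 1, and 5 without TSC1 KO replicate 3. Hsp90b1, the ER chaperone GRP94, had a log2 fold change of -0.72 ± 0.20 (adjusted p = 0.00539), lost with total counts alone, and Hspa5, which encodes BiP, had a log2 fold change of -0.55 ± 0.26 (adjusted p = 0.0942), which passed with only the groups compared. Of 35 proteasome genes, 21 fell and 1 rose (median -0.36, and 0.04 with total counts alone, where 0 fell and 5 rose). Psmc1 fell, with a log2 fold change of -0.52 ± 0.09, a call lost with total counts alone, and Psmd8 rose (0.51 ± 0.15, adjusted p = 0.00741, or 0.41 with adjusted p = 0.05 without TSC1 KO replicate 4). Of 18 heat shock and BAG3 genes, 1 rose and 1, Hspe1, fell (median 0.09), and 3 rose when only these groups were fitted. Cryab, a small heat shock protein, was the one that rose, by 1.33 ± 0.29 (adjusted p = 9.24e-04). Of 7 erythroid genes tested, 1 rose and 1 fell (14.3% each, median 0.75), against 23.5% higher and 17.5% lower over all genes. When only these groups were fitted, 4 erythroid genes rose. Alas2, of erythroid heme synthesis, fell (-1.73 ± 0.38, adjusted p = 0.00113), and Hbb-bs, a beta-globin, had a log2 fold change of 0.84 ± 0.64 (adjusted p = 0.311), which passed with only the groups compared.

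Acute-phase genes varied widely between libraries of one group. Of 25 members, 6 rose and 2, Hamp2 and Crp, fell (median 0.68). Members were called higher about as often as all genes (23.5%) and lower less often than all genes (17.5%). The higher count was 12 when only these groups were fitted and 3 without p62 TKO replicate 2 or TSC1 KO replicate 1, 3 or 4. Lcn2, an iron-scavenging protein of inflammation, had 432, 1265, 661 and 332 CPM in p62 TKO livers, against 5.89, 9.66, 8.202 and 16.5 CPM in TSC1 KO livers (6.06 ± 1.43, adjusted p = 0.00231). Orm2, an acute-phase glycoprotein, had 180.3, 604, 348 and 131 CPM in p62 TKO livers, against 16.2, 34.8, 28.5 and 37.9 CPM in TSC1 KO livers (3.43 ± 1.02, adjusted p = 0.0117). In both genes p62 TKO was above TSC1 KO in every library, and replicate 2 was the highest. Saa1, serum amyloid A, had 302, 1334, 632 and 80.998 CPM in p62 TKO livers, against 104, 66.6, 90.4 and 183 CPM in TSC1 KO livers (2.40 ± 1.32, adjusted p = 0.157, or 1.59 without p62 TKO replicate 2). Replicate 2 was again highest, but replicate 4 of p62 TKO lay among the TSC1 KO libraries, and the gene did not pass. Hamp2, a hepcidin paralog, had 3.53, 2.68, 3.16 and 10.03 CPM in p62 TKO livers, against 95.6, 39.6, 66.1 and 74.7 CPM in TSC1 KO livers (-3.82 ± 0.83, adjusted p = 0.00115, or -4.45 without p62 TKO replicate 4), with no overlap.

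The same loss of Atg5 could be read in livers with intact TSC1 and p62, in Atg5 KO against WT livers, which share no library with the comparison above. In that comparison 2944 genes (18.6%) were higher and 1792 (11.3%) lower. Of the 3719 genes higher in p62 TKO than in TSC1 KO, 2211 were also higher in Atg5 KO than in WT, which is 59.5% of the first list and 75.1% of the second, and 31 were lower. Of the 2779 genes lower in p62 TKO, 946 were also lower in Atg5 KO, which is 34.0% and 52.8%, and 19 were higher. Across the 15851 genes, which are not independent replicates, the 2 changes had a Pearson r of 0.661 and a Spearman rho of 0.665. NRF2 targets rose in 33 members and fell in 0 in Atg5 KO, and duct genes rose in 27.

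The difference between the 2 changes, (p62 TKO - TSC1 KO) - (Atg5 KO - WT), was called for 489 genes, 219 positive (1.38%) and 270 negative (1.70%), 3.08% in all. The total was 295 without p62 TKO replicate 3, 266 without TSC1 KO replicate 1, 312 without TSC1 KO replicate 2, 308 without TSC1 KO replicate 3, 299 without Atg5 KO replicate 1, 313 without Atg5 KO replicate 3, 271 without WT replicate 2 and 305 without WT replicate 4. It was 961 with DESeq2, 787 with only the 4 groups and 285 with no filter. Acute-phase genes had 11 positive members and 1 negative among 25 (median 2.15). Between TSC1 KO and WT livers, 20 of the list were lower in TSC1 KO and 1 higher (median -1.78). Orm2 averaged 316 ± 213 CPM in p62 TKO and 29.3 ± 9.603 CPM in TSC1 KO, against 53.9 ± 59.7 CPM in Atg5 KO and 724 ± 678 CPM in WT livers (SD, n = 4 each), a difference of 7.17 ± 1.45 (adjusted p = 0.0137), or 8.33 without Atg5 KO replicate 4 and 6.32 without WT replicate 4. It was higher in p62 TKO than in TSC1 KO, and lower in Atg5 KO than in WT. The summed level of the list in WT ran from 53806 to 227437 CPM, so WT libraries themselves differed widely.

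Kupffer and neutrophil markers had 4 positive members each and 0 negative. Timd4 averaged 9.68 ± 1.698 CPM in p62 TKO and 0.933 ± 0.785 CPM in TSC1 KO, against 2.43 ± 2.15 CPM in Atg5 KO and 4.999 ± 1.33 CPM in WT, a difference of 4.41 ± 0.73 (adjusted p = 0.00295), or 5.07 without TSC1 KO replicate 4 and 5.23 without Atg5 KO replicate 3. Cpe, among the largest increases above, differed by 4.14 ± 0.81 (adjusted p = 0.0103). Duct genes had 0 positive and 10 negative members of 30 (median -1.33), and 4 negative members with total counts alone. Sox4 averaged 27.98 ± 7.72 CPM in p62 TKO and 7.53 ± 1.63 CPM in TSC1 KO, against 12.1 ± 3.39 CPM in Atg5 KO and 0.759 ± 0.388 CPM in WT, a difference of -2.07 ± 0.46 (adjusted p = 0.0167) whose call was lost with total counts alone. It was higher in the first group of each pair, and the smaller fold in p62 TKO went with a higher level in TSC1 KO than in WT. Rragd showed the same order, with 119 ± 20.6 CPM in p62 TKO and 40.4 ± 9.61 CPM in TSC1 KO, against 49.2 ± 23.2 CPM in Atg5 KO and 1.73 ± 0.948 CPM in WT (-3.26 ± 0.49, adjusted p = 0.00166). NRF2 targets had 0 positive and 3 negative members, as had interferon-stimulated, lipogenesis, bile acid and sex-dependent genes, although 1 NRF2 target was negative with total counts alone, and the difference for Slc7a11 was -1.19 ± 1.47 (adjusted p = 0.73). Slco1a1 averaged 6.596 ± 1.304 CPM in p62 TKO and 258 ± 117 CPM in TSC1 KO, against 154 ± 47.3 CPM in Atg5 KO and 374 ± 86.8 CPM in WT, and was lower in the first group of both pairs by different amounts (-4.01 ± 0.64, adjusted p = 0.00265). Nr4a1 averaged 4.05 ± 0.898 CPM in p62 TKO and 44.4 ± 22.1 CPM in TSC1 KO, against 12.8 ± 12.95 CPM in Atg5 KO and 2.804 ± 1.01 CPM in WT (-5.63 ± 0.92, adjusted p = 0.00324, or -4.70 without Atg5 KO replicate 2).

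**Figure D5:**
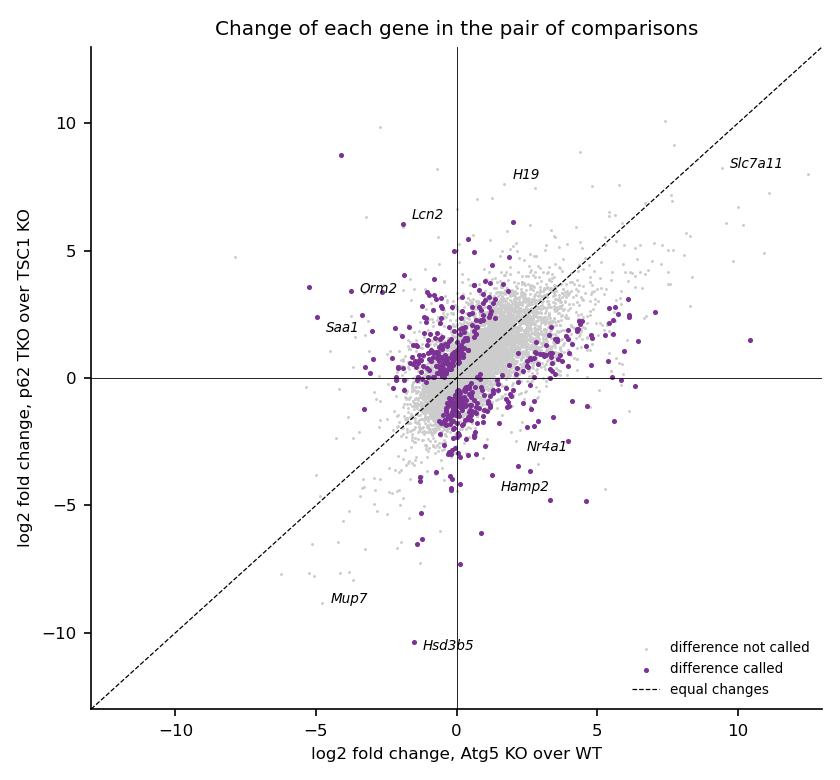
Log2 fold change of Atg5 KO over WT on the x axis and of p62 TKO over TSC1 KO on the y axis for the 15851 genes tested, with the 489 genes whose changes differed in purple and a dashed line where both changes are equal. The points follow the diagonal loosely, with a Pearson r of 0.661.

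Against DKO livers, which have the same losses except that of p62, p62 TKO livers had 3532 genes higher (22.3%) and 3414 lower (21.5%), 43.8% in all. With total counts alone the median of all genes was -0.48, and 1627 genes were higher and 7538 lower. This is the test of the difference between the changes of p62 TKO and DKO from the TSC1 KO livers they share. Duct genes were lower in 26 of 30 members and higher in 0 (median -1.58). Spp1 averaged 2854 ± 535 CPM in p62 TKO and 7386 ± 1441 CPM in DKO livers (SD, n = 4 each), against 709 ± 155 CPM in TSC1 KO, and p62 TKO differed from DKO by -1.37 ± 0.27 (adjusted p = 2.65e-04). Hepatocyte identity genes were higher in 24 of 26 members, acute-phase genes in 22 of 25, Kupffer markers in 9 of 14 and oxidative phosphorylation genes in all 32. The lower count was 0 in each of these lists. With total counts alone, 15 oxidative phosphorylation genes were higher and 0 lower, and the median was 0.26 in place of 0.72. Alb averaged 18244 ± 3447 CPM in p62 TKO and 6645 ± 645 CPM in DKO (1.46 ± 0.27, adjusted p = 1.30e-04), and Cyp2e1 averaged 2077 ± 186 CPM in p62 TKO and 202 ± 59.6 CPM in DKO (3.36 ± 0.26, adjusted p = 4.60e-09). The p62 TKO levels thus stood between those of DKO and TSC1 KO for Spp1, Alb and Cyp2e1. Members of the YAP and TEAD list were lower in 13 of 24 cases and higher in 0, with Ankrd1 at -1.97 ± 0.44 (adjusted p = 0.00109), or -2.59 without p62 TKO replicate 1. NRF2 targets had 14 higher and 2 lower (median 0.46), but 4 higher and 10 lower with total counts alone (median 0.00), so they show no direction between these groups that holds under both scalings. Slc7a11 had a log2 fold change of 0.51 ± 0.48 (adjusted p = 0.412).

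Nrf2 TKO livers lack Nrf2 in place of p62. Replicate 2 of Nrf2 TKO stood apart, with Xist at 1052 CPM and the Y-linked Ddx3y at 0.371 CPM, the pattern of a female. All p62 TKO and TSC1 KO libraries had the male pattern. Counts of genes and list members are therefore given with and without that replicate, except those with total counts alone, which include it. Between p62 TKO and Nrf2 TKO livers, 1649 genes were higher (10.4%) and 1127 lower (7.11%), 2776 (17.5%) in all. Without that library 1685 were higher and 1151 lower, 2836 in all. With total counts alone the median of all genes was 0.19, and 3003 genes were higher and 549 lower. Nfe2l2 averaged 122 ± 4.97 CPM in p62 TKO and 11.7 ± 4.23 CPM in Nrf2 TKO livers. NRF2 targets were higher in 36 of 44 members and lower in 0 (median 1.67), and in 35 without the library (median 1.74). Slc7a11 averaged 193 ± 96.4 CPM in p62 TKO and 1.33 ± 1.17 CPM in Nrf2 TKO (7.20 ± 0.69, adjusted p = 1.39e-06, or 7.95 without Nrf2 TKO replicate 1). Gsta3, which was lower in p62 TKO than in TSC1 KO, averaged 953 ± 139 CPM in p62 TKO and 847 ± 166 CPM in Nrf2 TKO and did not pass (0.17 ± 0.20, adjusted p = 0.604). Gstm1, higher than in TSC1 KO, averaged 5654 ± 2999.8 CPM in p62 TKO and 441 ± 166 CPM in Nrf2 TKO (3.68 ± 0.36, adjusted p = 6.23e-07). Beyond these targets, cell cycle genes were higher in 19 of 32 members and 18 without the library, and Kupffer markers in 7 of 14 either way, with none lower. Sex-dependent genes were lower in 15 of 29 members and higher in 0, and lower in 15 and higher in 1 without the library, with the median at -2.38 and -1.72. Hepatocyte identity genes were lower in 6 of 26 members and in 10 without it, and oxidative phosphorylation genes in 13 of 32 and in 14 without it, but in 2 with total counts alone (median -0.17 in place of -0.36). Mup7 averaged 2.51 ± 1.86 CPM in p62 TKO and 77.2 ± 98.002 CPM in Nrf2 TKO (-4.93 ± 1.25, adjusted p = 0.0101). Without Nrf2 TKO replicate 2 the log2 fold change of Mup7 was -5.34. Alb averaged 18244 ± 3447 CPM in p62 TKO and 45906 ± 6192 CPM in Nrf2 TKO (-1.33 ± 0.27, adjusted p = 0.00145), or -1.39 without that replicate.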

How the data were processed

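Liver RNA of 24 libraries was grouped by the genotype in the labels, with 1 count column each. The authors deposited raw counts per gene, made with Trimmomatic 0.36, HISAT2 2.1.0 and HTSeq on GRCm38 according to the submitters' processing notes. The sources used here give no HTSeq version, annotation release or strand setting, and overlapping genes may share counts. Of 167 genes named with values, 41 overlap an exon on the other strand and 16 on the same strand. Of 33019 identifiers, 32953 had a symbol in GENCODE M21 and 66 did not.

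Genes were filtered with filterByExpr by genotype, which left 15851, and scaled by TMM. All 24 libraries entered 1 model with the genotype as its only factor and 18 residual degrees of freedom, fitted with the robust quasi-likelihood test of edgeR 4.0.16 in R 4.3.3, with Benjamini-Hochberg adjustment over all genes tested. Standard errors were derived from the F statistic and the log2 fold change. The code was tested on simulated data. Contrasts were p62 TKO minus TSC1 KO, its difference from Atg5 KO minus WT, p62 TKO minus DKO and p62 TKO minus Nrf2 TKO. Where a group had 0 counts, folds were bounded with 3 counts for that group, and counting intervals (95%, exact) cover counting error only. List medians were the same with such genes at their bounds. Where some members of a list had too few counts, its size is the number tested.

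Genes were named by a rule: the 4 targeted genes, the 15 largest changes each way (called, at least 5 CPM, groups not overlapping, no Gm or Rik symbols), the 10 called genes of highest CPM each way, in each of 36 lists up to 5 members of smallest adjusted p, 3 of highest CPM and 3 of the opposite direction, and the 6 largest differences each way in the contrast of contrasts. Not every gene that met the rule is printed, and list members named without a value are there to name counts of 5 or fewer. Some genes are not reported here. The comparison, the lists and the rule were chosen with earlier results of these data known. Promoter windows come from RefSeq on GRCm38.p6. Alternatives were DESeq2 1.42.0, its size factors, scaling by total counts alone, all genes without a filter, a fit of the compared groups alone, a replicate block and the omission of each library in turn.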

Additional observations from a re-analysis of the deposited data

Results flagged for a closer look

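The change of p62 TKO from TSC1 KO differed from that of Atg5 KO from WT in 489 genes by a test of the difference itself. In 334 groups of 4 libraries examined for the named genes, 32 had a highest or lowest library that stood apart, with a gap to its neighbour above Dixon's 95% critical share of the group's range, which chance gives in about 1 of 20 groups. Replicate 1 of p62 TKO stood high for Ddr1 (58.7 CPM, others 37.9 to 40.6), Ankrd1 (109.6 CPM, others 29.8 to 43.2) and Krt19 (38.2 CPM, others 10.1 to 13.7), and low for Idh1 (297 CPM, others 394 to 401). Replicate 2 of p62 TKO stood high for Slc22a28 (0.268 CPM, others 0), Cebpa (367 CPM, others 283 to 292) and Gabarap (424 CPM, others 349 to 354). Replicate 3 of p62 TKO stood high for Stard4 (77.3 CPM, others 59.03 to 62.03). Replicate 4 of p62 TKO stood high for Slc7a11 (337 CPM, others 136 to 161), Apela (17.3 CPM, others 5.62 to 7.42), Abcc4 (192 CPM, others 69.99 to 82.3), Nqo1 (129 CPM, others 39.9 to 49.6), Hamp2 (10.03 CPM, others 2.68 to 3.53) and Scd2 (186 CPM, others 90.4 to 97.5), and low for Pdk1 (19.7 CPM, others 23.8 to 24.6) and Igf1 (291 CPM, others 332 to 339.96). Replicate 1 of TSC1 KO stood high for Apela (0.109 CPM, others 0), Apoa1 (21405 CPM, others 12975 to 13898), Ftl1 (2320.4 CPM, others 1600.1 to 1704), Gstp1 (1435 CPM, others 734 to 837) and Ctsd (325 CPM, others 232 to 246), and low for Cd63 (11.02 CPM, others 15.7 to 16.6), Fabp5 (206 CPM, others 236 to 242), Cd8b1 (0.109 CPM, others 0.189 to 0.197) and Hnf4a (463 CPM, others 545 to 559). Replicate 2 of TSC1 KO stood high for Sox4 (9.94 CPM, others 6.33 to 6.95), Gls2 (863 CPM, others 499.9 to 557) and Arg1 (1423 CPM, others 1023 to 1079), and low for Ghr (572 CPM, others 680.2 to 701) and Mup3 (7208 CPM, others 10139 to 10613). Replicate 4 of TSC1 KO stood high for Ly6d (4.72 CPM, others 0.947 to 1.35) and Csf3r (2.26 CPM, others 0.437 to 0.663). The flags for Slc22a28 in p62 TKO and for Apela and Cd8b1 in TSC1 KO rest on a few counts at most. Whole counts set the gap there, so the chance rate does not apply to them.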

How the results depend on the processing

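The counts of genes that differed between p62 TKO and TSC1 KO livers moved little with DESeq2 (6835), its size factors (6552), no filter on low counts (5728) or only the 2 groups (7187), and were 5386 to 6479 when a library was left out. With total counts alone, 7153 were higher and 973 lower. The difference from Atg5 KO versus WT was called for 961 genes with DESeq2 (403 positive, 558 negative), 285 with no filter (131 and 154) and 787 with only the groups compared (372 and 415), and for 266 to 589 when a library was left out (106 to 266 positive, 157 to 323 negative). Against DKO, total counts alone gave 1627 higher and 7538 lower. Against Nrf2 TKO, total counts alone gave 3003 higher and 549 lower, no filter gave 694 lower, and only the groups compared gave 1713 in all and 593 lower. The differences by scaling follow the shift of the median of all genes, and the cause of the other changes was not tested. Among single genes that passed in the reported or the alternative fit, 2 turned direction, both with total counts alone, Keap1 to 0.0052 and Gabarap to 0.39. Changes of sign in genes that passed in neither fit were not counted. Equal replicate numbers did not pair the libraries: the deviations of same-numbered p62 TKO and TSC1 KO libraries correlated at -0.20, -0.06, 0.01 and 0.02. With the replicate number as a block the counts were 6366 for p62 TKO versus TSC1 KO (3634 higher, 2732 lower), 523 for the difference from Atg5 KO versus WT (231 positive, 292 negative), 6890 against DKO and 2625 against Nrf2 TKO. The depth given in the report limits genes with few counts, such as the lymphocyte and neutrophil markers.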
